A study of Homo sapiens with 33 samples.

Results

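The genes described here are 34 components and targets of the integrated stress response and the unfolded protein response. They were chosen by name, as rows of the deposited count table, which has 59428 entries. All 34 were found there, and all 34 passed the filter on low counts in the inhibitor libraries and in the knockout libraries. They fall into an ATF4 arm of 20 genes and an ER chaperone arm of 14 genes. The integrated stress response starts when a kinase phosphorylates the translation factor eIF2, which slows protein synthesis as a whole but lets the mRNA of the transcription factor ATF4 be translated. ATF4 then turns on genes for amino acid uptake and synthesis and for the feedback phosphatase that reverses the signal. The unfolded protein response of the endoplasmic reticulum (ER) uses the sensors PERK, IRE1 and ATF6, and PERK is itself an eIF2 kinase, so the arms meet. Its transcription factors XBP1 and ATF6 raise ER chaperones and the machinery that removes misfolded proteins.

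RNA came from MDA-MD-231 and MDA-MD-468 cells (so spelled in the labels), triple-negative breast cancer lines, all of wild-type genotype in the inhibitor libraries. In each of the 2 lines, cells received SY200/V50, V50 or SY200 for 3, 6 and 12 h, against a DMSO and an untreated parental library of 0 h. The series describes these treatments as a CDK7 inhibitor, a CDK9 inhibitor and both, which act on kinases of the RNA polymerase II cycle, and the question was how the agents, alone and together, changed expression over time. The labels do not say which code names which agent, nor the unit of the numbers in the codes. In MDA-MD-231 there were also CDK7/9 KO, CDK9 KO, CDK7 KO and CDK1 KO cells, against empty vector cells, each at 72 and 96 h, and a library named parental 2 that is used in no comparison. The labels do not say whether a knockout was a clone or a pool. Each line, condition and time has 1 library, so p-values rest on the agreement of lines or times and not on repeats, and separate cultures are not stated. The controls are of 0 h only, so each change against control holds treatment and time in culture together. Cells were measured in bulk, so fewer cells with a transcript and less of it per cell cannot be told apart.

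The 33 libraries held 16985219 to 22859779 counted reads from the 3' ends of poly(A) RNA. Of 10 markers of MDA-MB-231 the median lay between 320.0 and 1057 CPM in MDA-MD-231 and between 19.5 and 45.2 CPM in MDA-MD-468, where CPM is the count relative to the TMM-scaled library size. Of 10 markers of MDA-MB-468 it lay between 414 and 861 CPM in MDA-MD-468 and between 26.2 and 146 CPM in MDA-MD-231, and 8 immune cell markers summed to 0.844 to 7.46 CPM. Log2 fold changes are given with their standard error, and a gene counts as changed when its edgeR BH-adjusted p, over all genes tested, is under 0.05. By that rule 9 of the 10 MDA-MB-231 markers were lower in the MDA-MD-468 controls than in those of MDA-MD-231 and 1 was higher. All 10 MDA-MB-468 markers were higher. TMM scaling takes most genes as not changed. The 13 mRNAs of the mitochondrial genome have their own polymerase. They took 5.05% of counts at 12 h of SY200/V50 in MDA-MD-231, against 2.51% with DMSO, and 13.5% in MDA-MD-468, against 3.93% with DMSO. Scaled to those mRNAs, the median of all genes was -1.33 with SY200/V50 (0.09 under TMM), -0.92 with V50 (-0.004) and -0.44 with SY200 (-0.01). On that scale all 34 genes fell with SY200/V50, while 15661 of all 18911 genes tested were called lower. Each rise given below for SY200/V50 against control is therefore relative to the bulk of mRNAs. Whether the mitochondrial mRNAs themselves stayed constant was not tested. Rises in other comparisons are given under TMM unless the mitochondrial scale is named.

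Promoter sequences are shown first because the arms are known for different control elements. The ER stress element (ERSE, CCAAT and CCACG at the ends of a stretch of 19 bases), its variant ERSE-II (ATTGG, any base, then CCACG) and the unfolded protein response element (UPRE, TGACGTGG) are bound by ATF6 or XBP1, and the amino acid response element (CARE, TGATGNAA) by ATF4 with a C/EBP partner. Both strands were searched from 250 bases before to 50 bases after the start of 18369 genes in the RefSeq table of GRCh38.p14, in which 31 of the 34 genes were found (SLC7A11, NUPR1 and SHMT2 are named only). The ERSE was in 4 of 14 ER chaperone arm promoters (28.6%), in 0 of 17 of the ATF4 arm and in 0.103% of all promoters. The ERSE-II was in 3 of 14 (21.4%), 0 of 17 and 0.0653% of all, and the UPRE was in 1 of 14 (7.14%), 0 of 17 and 0.833% of all, where it overlapped an ERSE-II by some bases. The CARE was in 1 of 14 ER chaperone arm promoters (7.14%), in 4 of 17 of the ATF4 arm (23.5%) and in 2.87% of all. A match is a description of these letters and not evidence of binding. The search took 1 start per gene and exact letters, so elements at other starts or with other letters were not counted. For TRIB3, PHGDH, SLC3A2, PDIA6 and DDIT3 the start used lay well inside the gene as annotated in GENCODE release 29. The CARE counted for SLC3A2 lies at such a start. Below, each stretch is on the gene's own strand, 5′ to 3′, with the motif letters in capitals and the bases N and the flanks in lower case. The ERSE stretches are those of HSPA5 (chr9:125241381-125241419, minus strand), HSP90B1 (chr12:103930206-103930349, plus strand, a pair of ERSEs), CALR (chr19:12938374-12938412, plus strand) and XBP1 (chr22:28800593-28800631, minus strand). The HYOU1 stretch (chr11:119057264-119057403, minus strand) holds the UPRE and a pair of ERSE-IIs, and the HERPUD1 stretch (chr16:56931956-56932045, plus strand) a CARE and an ERSE-II. The CARE stretches are those of CHAC1 (chr15:40953252-40953279, plus strand) and PPP1R15B (chr1:204412027-204412054, minus strand). A CARE also stood in ASNS and SLC3A2 and an ERSE-II in SDF2L1, whose stretches are not printed.
HSPA5 promoter: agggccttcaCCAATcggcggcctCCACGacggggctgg
HSP90B1 promoter: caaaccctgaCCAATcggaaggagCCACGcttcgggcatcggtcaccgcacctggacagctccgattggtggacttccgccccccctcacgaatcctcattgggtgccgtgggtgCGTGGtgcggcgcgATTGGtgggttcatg
CALR promoter: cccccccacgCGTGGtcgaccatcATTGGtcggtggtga
XBP1 promoter: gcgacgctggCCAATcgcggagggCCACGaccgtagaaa
HYOU1 promoter: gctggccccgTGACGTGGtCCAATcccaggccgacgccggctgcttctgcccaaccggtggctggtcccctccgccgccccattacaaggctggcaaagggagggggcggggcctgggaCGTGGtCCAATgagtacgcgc
HERPUD1 promoter: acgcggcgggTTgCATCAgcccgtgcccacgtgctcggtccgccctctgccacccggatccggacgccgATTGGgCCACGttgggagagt
CHAC1 promoter: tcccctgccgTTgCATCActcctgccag
PPP1R15B promoter: ccgccccggcTGATGcAAcctcacgctg

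With SY200/V50 several regulators of the ATF4 arm fell, and the largest falls were those of the transcripts of the glutathione-degrading enzyme CHAC1 and of the transcription factor CEBPB. CHAC1 had 0.581, 0.189 and 0.154 CPM at 3, 6 and 12 h in MDA-MD-231, against 6.87 CPM with DMSO and 5.53 CPM in the parental library. In MDA-MD-468 it had 1.88, 4.13 and 1.84 CPM at these times, against 20.7 CPM with DMSO and 12.5 CPM in the parental library. All 6 treated libraries lay below both controls of their line, and as the mean of lines and times CHAC1 was 10.5-fold lower (-3.39 ± 0.56, edgeR BH-adjusted p = 0.000108). The treated MDA-MD-231 levels of CHAC1 were near the detection limit, so the size of this fall is uncertain. CEBPB, a C/EBP factor that pairs with ATF4, had 9.35, 3.02 and 3.54 CPM in MDA-MD-231, against 34.4 CPM with DMSO and 35.7 CPM in the parental library. It had 12.5, 7.94 and 7.02 CPM in MDA-MD-468, against 67.3 CPM with DMSO and 99.8 CPM in the parental library, and fell by 3.06 ± 0.23 (edgeR BH-adjusted p = 9.89e-08). The groups did not overlap in either line.

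The phosphatase subunits that end the eIF2 signal fell to different degrees with SY200/V50. PPP1R15B (CReP), the subunit made without stress, had 21.8, 11.6 and 5.78 CPM in MDA-MD-231, against 136 CPM with DMSO and 122 CPM in the parental library. It had 29.3, 30.3 and 20.5 CPM in MDA-MD-468, against 122 CPM with DMSO and 108 CPM in the parental library. It was lower at every time in both lines and fell by 2.74 ± 0.32, or 6.66-fold (edgeR BH-adjusted p = 4.21e-06). PPP1R15A (GADD34), the stress-induced subunit, had 75.2, 134 and 91.2 CPM in MDA-MD-231, against 307 CPM with DMSO and 242 CPM in the parental library. It had 26.3, 48.7 and 88.4 CPM in MDA-MD-468, against 70.6 CPM with DMSO and 55.9 CPM in the parental library. Its 12 h value in MDA-MD-468 stood above both controls while the other 5 treated libraries stood below theirs, and it fell by 0.91 ± 0.24 (edgeR BH-adjusted p = 0.00545). DDIT3 (CHOP), a transcription factor downstream of ATF4, had 2.38, 1.07 and 1.0 CPM in MDA-MD-231, against 12.1 CPM with DMSO and 11.4 CPM in the parental library. It had 1.68, 2.68 and 2.03 CPM in MDA-MD-468, against 6.38 CPM with DMSO and 5.31 CPM in the parental library. It fell by 2.37 ± 0.40 (edgeR BH-adjusted p = 0.000124), but its locus overlaps another annotated gene on the same strand, so its reads are uncertain. ATF4 itself had 194, 128 and 145 CPM in MDA-MD-231, against 234 CPM with DMSO and 295 CPM in the parental library. It had 599, 455 and 361 CPM in MDA-MD-468, against 730.2 CPM with DMSO and 660.2 CPM in the parental library, and fell by 0.69 ± 0.12 (edgeR BH-adjusted p = 0.000171). The counts give its mRNA and say nothing of its translation. CEBPG, a partner of ATF4, and VLDLR, a lipoprotein receptor, completed the 8 lower genes of the arm, at -1.06 ± 0.34 and -1.25 ± 0.28.

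**Figure D1:**
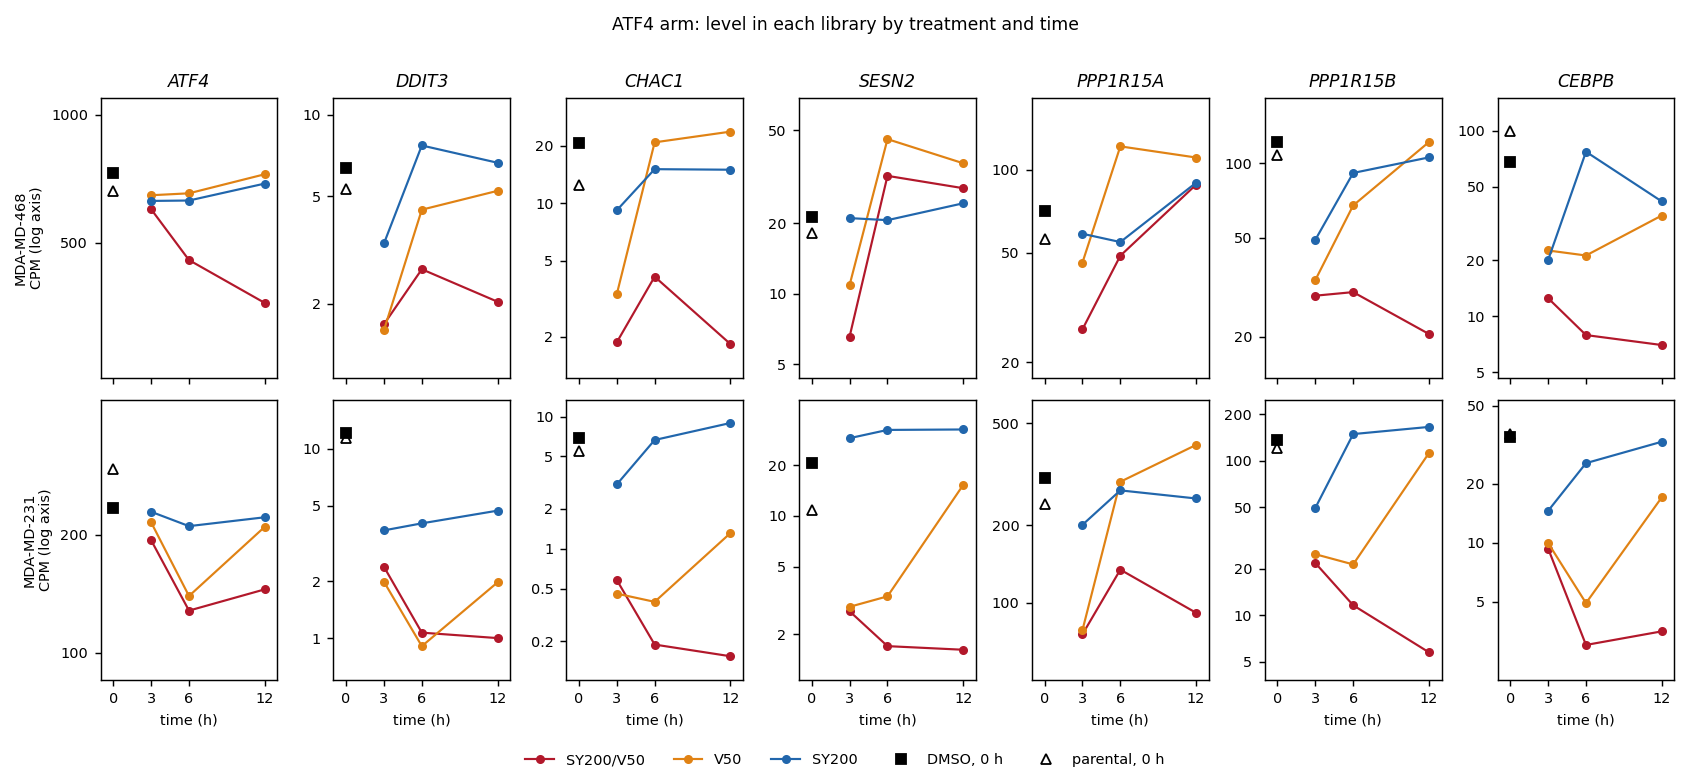
Level of 7 ATF4 arm genes in CPM (vertical log axes, a separate scale in each panel) against time in hours, with MDA-MD-468 in the upper row and MDA-MD-231 in the lower row; each point is 1 library, lines join the 3 times of a treatment, and black symbols are the 0 h controls. CHAC1, PPP1R15B and CEBPB lay below both controls at every time of SY200/V50, with CHAC1 at 0.581, 0.189 and 0.154 CPM in MDA-MD-231.

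The 4 genes of the ATF4 arm called higher were PHGDH, PSAT1, SHMT2 and NUPR1, which rose relative to the bulk of mRNAs but not on the mitochondrial scale. PHGDH, the first enzyme of serine synthesis, had 65.5, 76.4 and 116 CPM in MDA-MD-231, against 46.2 CPM with DMSO and 50.4 CPM in the parental library. It had 443, 573 and 748 CPM in MDA-MD-468, against 407 CPM with DMSO and 319.9 CPM in the parental library. It rose on the TMM scale (0.73 ± 0.11, edgeR BH-adjusted p = 3.52e-05) and was at -0.70 on the mitochondrial scale. PSAT1, the second enzyme of that pathway, had 282, 326 and 436 CPM in MDA-MD-231, against 165 CPM with DMSO and 198 CPM in the parental library. It had 183, 204 and 271 CPM in MDA-MD-468, against 177 CPM with DMSO and 148 CPM in the parental library. All 6 treated libraries of both genes were above both controls of their line. PSAT1 rose by 0.66 ± 0.14 under TMM and was at -0.78 on the mitochondrial scale, and SHMT2, the mitochondrial enzyme that splits serine, rose by 0.74 ± 0.13 and was at -0.69. NUPR1, a small stress-induced nuclear protein, rose by 0.89 ± 0.24 under TMM and was at -0.58 on the mitochondrial scale, but it was near the detection limit in MDA-MD-231 (0.349, 0.252 and 0.385 CPM, against 0.0798 CPM with DMSO and 0.328 CPM in the parental library). MTHFD2, another mitochondrial folate enzyme, was above both controls in the 3 MDA-MD-231 libraries and below both in the 3 of MDA-MD-468 and did not pass (0.12 ± 0.15), nor did the amino acid transporter genes SLC7A5 (0.39 ± 0.21), SLC3A2 (0.18 ± 0.16) and SLC7A11 (0.04 ± 0.33). ASNS, asparagine synthetase, ranged from 0.639 to 6.40 CPM over the 22 libraries and overlaps another transcript on its strand, so its value is uncertain (0.33 ± 0.35, not past the threshold).

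Of the 20 ATF4 arm genes 4 rose and 8 fell with SY200/V50, against 24% of all 18911 genes tested that rose and 24.2% that fell. The median of the arm was -0.52, against 0.09 over all genes. Of the 14 ER chaperone arm genes 6 rose and 4 fell, and their median was -0.06. In all 22 of 34 genes were called, against 48.2% of all genes, and 20 to 24 when any 1 library was left out. CEBPG was no longer called without the SY200/V50 6 h library of MDA-MD-231 (-0.89), nor was NUPR1 without that of MDA-MD-468 (0.78). Of the identity markers, 6 of 10 for MDA-MB-231 rose and 0 fell, and 2 of 10 for MDA-MB-468 rose and 2 fell. Their part in these results was not tested.

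In the ER chaperone arm the transcription factor gene XBP1 and the sensor gene EIF2AK3 fell with SY200/V50. XBP1, whose mRNA IRE1 splices into that of an active transcription factor, had 22.5, 9.19 and 8.93 CPM in MDA-MD-231, against 42.7 CPM with DMSO and 51.8 CPM in the parental library. It had 155, 92.0 and 99.1 CPM in MDA-MD-468, against 155 CPM with DMSO and 224 CPM in the parental library. It fell by 1.31 ± 0.29 (edgeR BH-adjusted p = 0.00126), while tags at its 3' end do not tell the spliced from the unspliced form. EIF2AK3, which encodes PERK, had 14.4, 5.60 and 3.00 CPM in MDA-MD-231, against 29.1 CPM with DMSO and 19.2 CPM in the parental library. It had 12.4, 11.2 and 22.2 CPM in MDA-MD-468, against 29.8 CPM with DMSO and 27.5 CPM in the parental library, and fell by 1.30 ± 0.36 (edgeR BH-adjusted p = 0.00718). All 6 treated libraries of each of these genes were below both controls, XBP1 at 3 h in MDA-MD-468 by less than the printed digits show. Of the other sensors, ERN1, which encodes IRE1, did not pass (-0.66 ± 0.33, edgeR BH-adjusted p = 0.112) and ATF6 rose slightly under TMM (0.39 ± 0.12, edgeR BH-adjusted p = 0.0122) and was at -1.04 on the mitochondrial scale. That call of ATF6 was lost without the MDA-MD-231 parental (0.28) or SY200/V50 12 h library (0.29) and with DMSO alone as control (0.30).

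Among the effectors, the co-chaperone gene DNAJB9 and the degradation gene HERPUD1 fell, while several chaperones and folding enzymes rose relative to the bulk but not on the mitochondrial scale. DNAJB9 (ERdj4) had 3.49, 3.21 and 2.7 CPM in MDA-MD-231, against 19.8 CPM with DMSO and 15.9 CPM in the parental library. It had 7.11, 6.55 and 6.03 CPM in MDA-MD-468, against 31.8 CPM with DMSO and 24.0 CPM in the parental library. It was 4.89-fold lower (-2.29 ± 0.28, edgeR BH-adjusted p = 7.03e-06), with no overlap in either line. HERPUD1, a membrane protein of ER-associated degradation, had 14.6, 7.36 and 7.32 CPM in MDA-MD-231, against 45.8 CPM with DMSO and 39.5 CPM in the parental library. It had 22.1, 42.7 and 78.8 CPM in MDA-MD-468, against 65.9 CPM with DMSO and 69.2 CPM in the parental library. It fell by 1.22 ± 0.44 (edgeR BH-adjusted p = 0.0282), and this call did not hold against DMSO alone (-1.29), nor without the MDA-MD-231 DMSO (-1.14), SY200/V50 6 h (-1.0) or 12 h (-0.93) or the MDA-MD-468 SY200/V50 3 h library (-1.17). Its level in MDA-MD-468 was above both controls at 12 h.

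HSP90B1 (GRP94), the HSP90 chaperone of the ER, had 1091, 1470.1 and 2075 CPM at 3, 6 and 12 h of SY200/V50 in MDA-MD-231, against 741 CPM with DMSO and 802 CPM in the parental library. In MDA-MD-468 it had 736, 864 and 1201 CPM, against 522 CPM with DMSO and 599.9 CPM in the parental library. It was higher at each later time in both lines and 1.77-fold higher under TMM (0.83 ± 0.09, edgeR BH-adjusted p = 2.55e-06), but at -0.61 on the mitochondrial scale. PDIA6, a protein disulfide isomerase, had 526, 698 and 1042 CPM in MDA-MD-231, against 345 CPM with DMSO and 377 CPM in the parental library. It had 707, 863 and 1208 CPM in MDA-MD-468, against 514 CPM with DMSO and 573 CPM in the parental library (0.87 ± 0.09 under TMM, -0.56 on the mitochondrial scale). PDIA4, another isomerase (0.75 ± 0.11 and -0.69 on these scales), HYOU1, the nucleotide exchange factor of the ER (0.60 ± 0.13 and -0.84), and the lectin chaperone CALR (0.51 ± 0.11 and -0.92) likewise rose under TMM, and none rose on the mitochondrial scale. HSPA5 (BiP), the HSP70 of the ER and its best-known stress marker, did not pass. It had 677, 609 and 602 CPM in MDA-MD-231, against 689 CPM with DMSO and 555 CPM in the parental library. It had 364, 295 and 215 CPM in MDA-MD-468, against 445 CPM with DMSO and 461 CPM in the parental library, below both controls in MDA-MD-468 and between them in MDA-MD-231 (-0.33 ± 0.14, edgeR BH-adjusted p = 0.0606). SDF2L1, a partner of BiP, and SEL1L, the adaptor of the HRD1 degradation complex, did not pass either (0.01 ± 0.19 and -0.12 ± 0.15). The ERSE shown above stood in genes that rose under TMM (HSP90B1, CALR), in XBP1, which fell, and in HSPA5, which did not pass. The ERSE-II stood in HYOU1, which rose under TMM, in HERPUD1, which fell, and in SDF2L1, which did not pass. The CARE stood in CHAC1, PPP1R15B and HERPUD1, which fell, and in ASNS and SLC3A2, which did not pass.

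**Figure D2:**
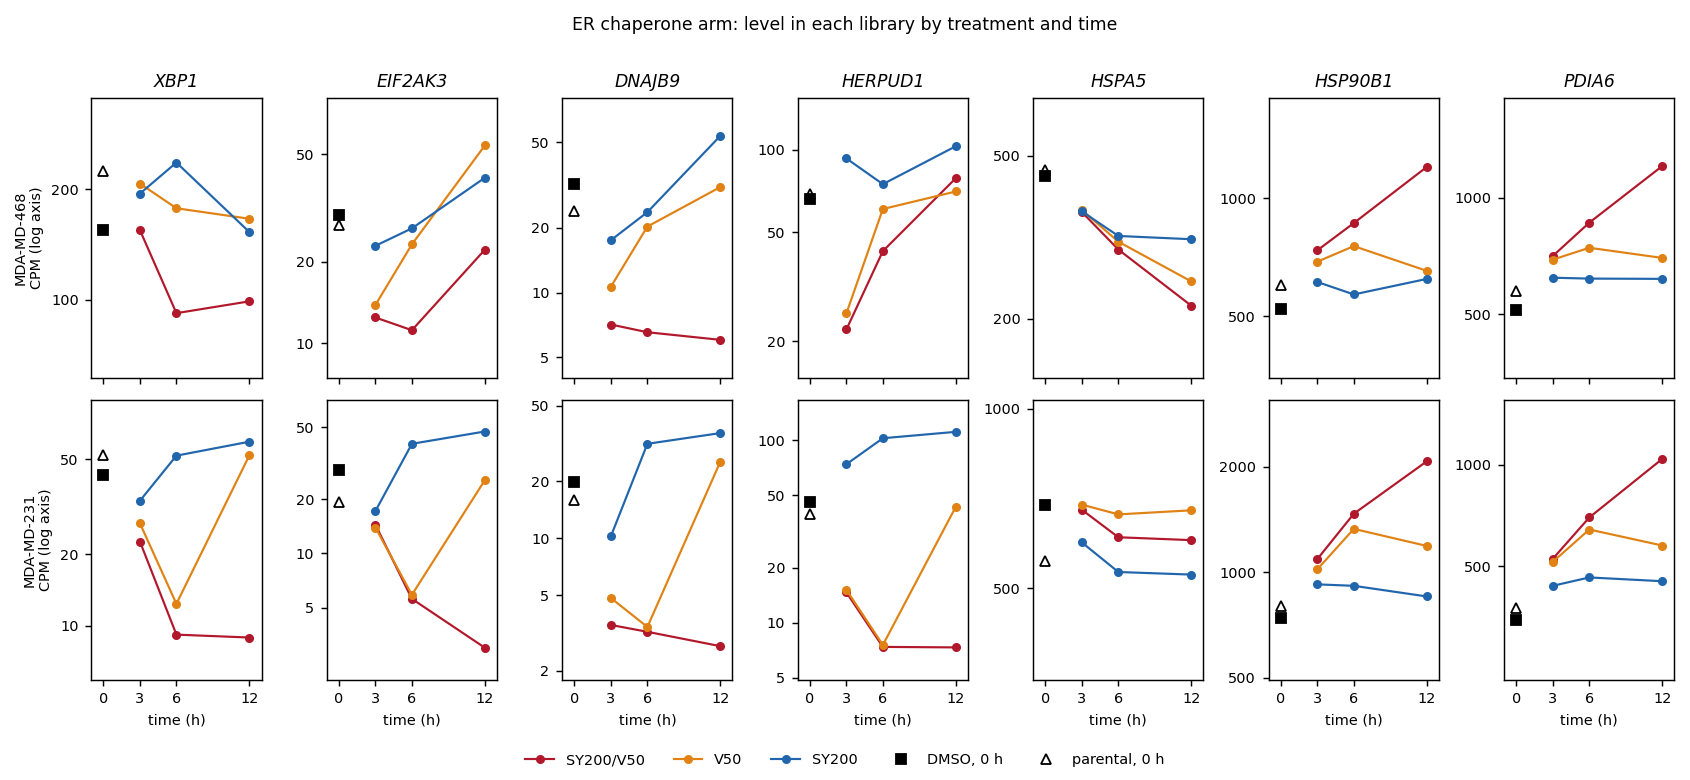
Level of 7 ER chaperone arm genes in CPM (vertical log axes, a separate scale in each panel) against time in hours, with MDA-MD-468 in the upper row and MDA-MD-231 in the lower row; each point is 1 library, lines join the 3 times of a treatment, and black symbols are the 0 h controls. With SY200/V50 XBP1 and DNAJB9 lay below both controls at every time while HSP90B1 reached 2075 CPM in MDA-MD-231 and 1201 CPM in MDA-MD-468 at 12 h on the TMM scale.

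The 12 lower genes had a median length from start to end of 5663 bp and the 10 higher genes one of 24560 bp (GENCODE release 29), whereas over all genes tested with a length the lower ones had a median of 31955 bp and the higher ones one of 19581 bp. These are descriptions with no test.

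V50 alone changed 13 of the 34 genes, 6 higher and 7 lower, against 10.4% and 11.9% of all genes. In the ATF4 arm 3 rose and 6 fell (median -0.06), and in the ER chaperone arm 3 rose and 1 fell (median -0.08), against a median of -0.004 over all genes. DDIT3 had 1.99, 0.907 and 1.97 CPM at 3, 6 and 12 h of V50 in MDA-MD-231, against 12.1 CPM with DMSO and 11.4 CPM in the parental library. It had 1.60, 4.46 and 5.24 CPM in MDA-MD-468, against 6.38 CPM with DMSO and 5.31 CPM in the parental library. It fell by 1.87 ± 0.39 (edgeR BH-adjusted p = 0.00327), and all 6 treated libraries were below both controls. CEBPB had 9.98, 4.93 and 17 CPM in MDA-MD-231, against 34.4 CPM with DMSO and 35.7 CPM in the parental library. It had 22.6, 21.3 and 34.9 CPM in MDA-MD-468, against 67.3 CPM with DMSO and 99.8 CPM in the parental library, and fell by 1.77 ± 0.22 (edgeR BH-adjusted p = 8.9e-05). PPP1R15B (-1.24 ± 0.31), CHAC1 (-1.46 ± 0.51), VLDLR (-1.07 ± 0.28), DNAJB9 (-0.81 ± 0.27) and ATF5, a transcription factor translated like ATF4 (-0.62 ± 0.18), also fell. The call of CHAC1 (edgeR BH-adjusted p = 0.0497) was lost without any of 15 libraries (-1.60 to -1.10) and that of DNAJB9 without any of 9 libraries (-0.88 to -0.59).

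The rises with V50 were those of SHMT2 (0.57 ± 0.13), PSAT1 (0.56 ± 0.14), PDIA6 (0.53 ± 0.09), HSP90B1 (0.46 ± 0.09), PHGDH (0.40 ± 0.10) and PDIA4 (0.38 ± 0.11) under TMM, and on the mitochondrial scale these 6 lay between -0.55 and -0.34. HSP90B1 had 1019.9, 1331 and 1189 CPM in MDA-MD-231, against 741 CPM with DMSO and 802 CPM in the parental library. It had 689, 755 and 652 CPM in MDA-MD-468, against 522 CPM with DMSO and 599.9 CPM in the parental library, so every treated library was above both controls. PDIA4 lost its call without any of 5 libraries (0.29 to 0.37), ATF5 without the DMSO (-0.50) or V50 6 h library of MDA-MD-468 (-0.60) or the V50 3 h library of MDA-MD-231 (-0.58), and VLDLR without the MDA-MD-231 DMSO library (-0.90). With DMSO alone as control 8 of the 13 calls were made, and PSAT1, PHGDH, PDIA4, CHAC1 and DNAJB9 were the ones lost.

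**Figure D3:**
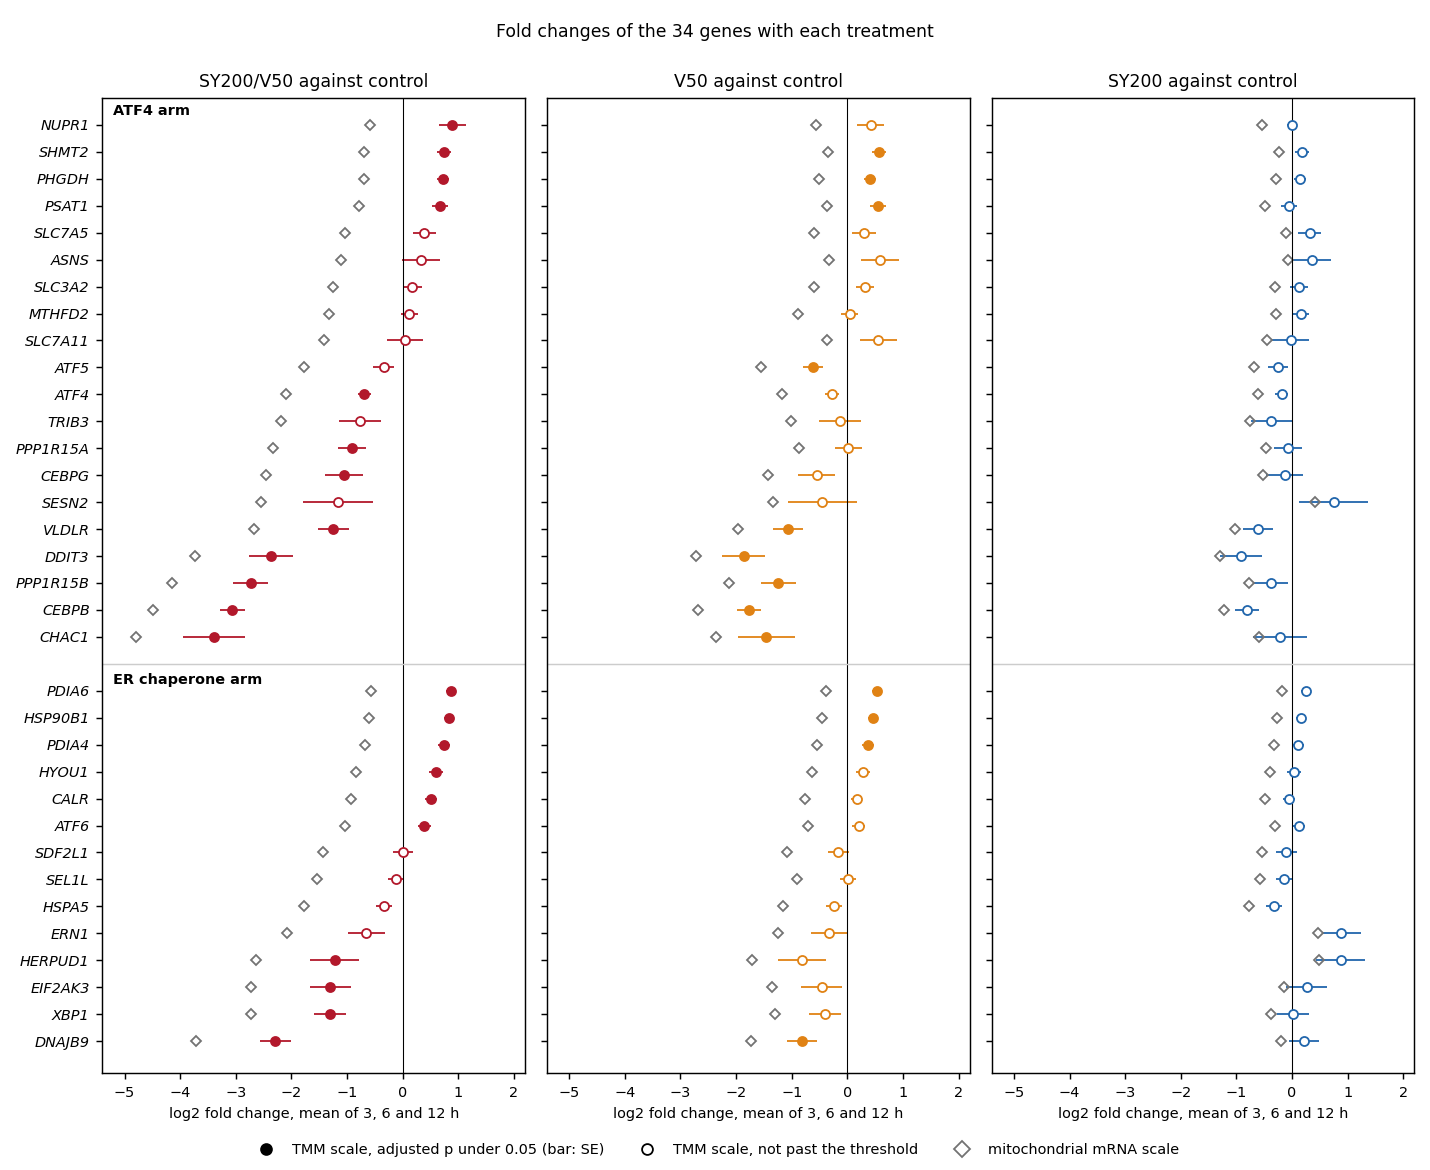
Log2 fold change of each of the 34 genes against control as the mean of 3, 6 and 12 h and of both lines (horizontal axis), for SY200/V50, V50 and SY200 from left to right; circles are TMM-scaled estimates with their standard error, filled where the edgeR BH-adjusted p is under 0.05, and grey diamonds are the same genes scaled to mitochondrial mRNAs. With SY200/V50 all 34 diamonds lie below 0, while 10 filled circles lie above 0 and 12 below.

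With SY200 alone 0 of the 34 genes were called (edgeR quasi-likelihood test), against 1.98% of all genes (0.968% higher and 1.02% lower). At an unadjusted p under 0.05 there were 6, against 16.9% of all genes, and DESeq2 called 2, CEBPB (-0.79) and PDIA6 (0.26), against 5.21% of all genes. DDIT3 had 3.71, 4.04 and 4.71 CPM in MDA-MD-231, against 12.1 CPM with DMSO and 11.4 CPM in the parental library, but 3.34, 7.71 and 6.65 CPM in MDA-MD-468, against 6.38 CPM with DMSO and 5.31 CPM in the parental library (-0.92 ± 0.37, edgeR BH-adjusted p = 0.215). The MDA-MD-231 libraries were all below their controls and those of MDA-MD-468 lay on both sides. HERPUD1 had 73.8, 102 and 111 CPM in MDA-MD-231, against 45.8 CPM with DMSO and 39.5 CPM in the parental library. It had 93.0, 74.9 and 103 CPM in MDA-MD-468, against 65.9 CPM with DMSO and 69.2 CPM in the parental library, above both controls in all 6 libraries (0.87 ± 0.44, edgeR BH-adjusted p = 0.335). ERN1 had 43.6, 76.7 and 71.2 CPM in MDA-MD-231, against 29.7 CPM with DMSO and 13.3 CPM in the parental library. It had 19.0, 12.0 and 18.6 CPM in MDA-MD-468, against 17.5 CPM with DMSO and 15.3 CPM in the parental library, above both controls in all but the MDA-MD-468 6 h library (0.89 ± 0.34, edgeR BH-adjusted p = 0.188). For CEBPB the change was -0.81 ± 0.21, edgeR BH-adjusted p = 0.0594, and it passed without any 1 of 4 libraries (-0.97 to -0.82), as ERN1 did without the MDA-MD-468 SY200 6 h library (1.15).

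With V50 several of the low transcripts were higher at 12 h than at 3 h. PPP1R15B had 24.9, 21.4 and 112 CPM at 3, 6 and 12 h in MDA-MD-231, against 136 CPM with DMSO and 122 CPM in the parental library. It had 33.8, 67.5 and 121 CPM in MDA-MD-468, against 122 CPM with DMSO and 108 CPM in the parental library. It was still below both controls at 12 h in MDA-MD-231 and between them in MDA-MD-468. At 12 h it was 4.03-fold higher than at 3 h of V50 (2.01 ± 0.50, edgeR BH-adjusted p = 0.0145). DNAJB9 had 4.84, 3.40 and 25.3 CPM in MDA-MD-231, against 19.8 CPM with DMSO and 15.9 CPM in the parental library. It had 10.7, 20.3 and 30.9 CPM in MDA-MD-468, against 31.8 CPM with DMSO and 24.0 CPM in the parental library, with 12 h over 3 h at 1.97 ± 0.44, edgeR BH-adjusted p = 0.00867. PPP1R15A (1.80 ± 0.39) and the transporter chain SLC3A2 (1.01 ± 0.25) were also higher at 12 h than at 3 h, and ATF5 was lower (-1.05 ± 0.29). These 5 genes, 4 higher and 1 lower, compare with 7.97% and 4.84% of all genes. Each of the calls rests on few libraries, as 0 of the 34 genes passed without the MDA-MD-231 V50 3 h library, 1 without the MDA-MD-468 V50 3 h library and 3 without the MDA-MD-231 V50 12 h library. With SY200 DNAJB9 alone was higher at 12 h than at 3 h (1.71 ± 0.43, edgeR BH-adjusted p = 0.0499), against 1.95% of all genes (0.978% higher and 0.968% lower), and it lost that call without any of 18 libraries (1.56 to 1.84).

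With SY200/V50 CEBPB and ATF4 were lower at 12 h than at 3 h. CEBPB at 12 h was below its 3 h level (-1.15 ± 0.37, edgeR BH-adjusted p = 0.0388), and so was ATF4 (-0.57 ± 0.19, edgeR BH-adjusted p = 0.0443). PPP1R15B, DNAJB9, CHAC1, XBP1 and EIF2AK3 did not pass between these times (-1.01 ± 0.50, -0.29 ± 0.46, -0.48 ± 1.05, -0.89 ± 0.45 and -0.30 ± 0.58). On the TMM scale 10 genes were higher at 12 h than at 3 h, against 9.57% of all genes, and 2 were lower, against 8.73%. They were the transporter chains SLC7A5 (1.21 ± 0.33, 0.04 on the mitochondrial scale) and SLC3A2 (1.15 ± 0.25, -0.02), PPP1R15A (1.19 ± 0.39, -0.03), PHGDH (0.79 ± 0.16, -0.38), SHMT2 (0.57 ± 0.19, -0.59), PDIA6 (0.88 ± 0.13, -0.29), HSP90B1 (0.82 ± 0.14, -0.36), HYOU1 (0.75 ± 0.20, -0.42), PDIA4 (0.71 ± 0.17, -0.46) and CALR (0.66 ± 0.16, -0.51). The 12 calls became 5 without the SY200/V50 3 h library of MDA-MD-231, 7 without its 12 h library and 3 without the SY200/V50 3 h library of MDA-MD-468. The least stable were PPP1R15A, lost without any of 14 libraries (0.05 to 1.19), SHMT2, lost without any of 14 libraries (0.34 to 0.71), and ATF4, lost without any of 11 libraries (-0.74 to -0.55), while CEBPB was lost without any of 3 libraries (-1.22 to -0.77).

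SY200/V50 was next set against each agent alone at the same times. Against SY200 23 of the 34 genes differed, 10 higher and 13 lower, against 23.8% and 22.2% of all genes. CHAC1 (-3.17 ± 0.53), DNAJB9 (-2.51 ± 0.27), PPP1R15B (-2.36 ± 0.30), CEBPB (-2.26 ± 0.21), HERPUD1 (-2.10 ± 0.42) and SESN2, a sestrin that senses leucine (-1.91 ± 0.61), had the largest falls. The sensors ERN1 (-1.55 ± 0.31) and EIF2AK3 (-1.56 ± 0.34) and the factor XBP1 (-1.33 ± 0.27) were lower too. Among the higher genes under TMM were NUPR1 (0.89 ± 0.21, -0.04 on the mitochondrial scale), PSAT1 (0.71 ± 0.13, -0.29), HSP90B1 (0.67 ± 0.08, -0.33), PDIA4 (0.64 ± 0.10, -0.36), PDIA6 (0.62 ± 0.08, -0.38) and PHGDH (0.59 ± 0.09, -0.41), and NUPR1 was lost without the SY200/V50 6 h library of MDA-MD-468 (0.79). SESN2 had 2.73, 1.70 and 1.62 CPM with SY200/V50 in MDA-MD-231, against 28.8, 32.3 and 32.4 CPM with SY200, and 6.57, 31.9 and 28.3 CPM in MDA-MD-468, against 21.1, 20.6 and 24.4 CPM. With SY200/V50 it was lower at every time in MDA-MD-231, but higher at 6 and 12 h in MDA-MD-468, and the call was lost without the SY200/V50 6 h (-1.51) or 12 h library (-1.52) of MDA-MD-231.

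Against V50 12 genes differed with SY200/V50, 5 higher and 7 lower, against 7.52% and 12.4% of all genes. CHAC1 (-1.93 ± 0.53), PPP1R15B (-1.50 ± 0.29), DNAJB9 (-1.48 ± 0.26), CEBPB (-1.30 ± 0.21), PPP1R15A (-0.93 ± 0.22), XBP1 (-0.91 ± 0.26) and ATF4 (-0.42 ± 0.11) were lower. At 12 h PPP1R15B stood at 5.78 CPM with SY200/V50 and 112 CPM with V50 in MDA-MD-231, and at 20.5 and 121 CPM with these treatments in MDA-MD-468. The higher genes were HSP90B1 (0.37 ± 0.08), PDIA4 (0.37 ± 0.10), CALR (0.35 ± 0.09), PDIA6 (0.34 ± 0.08) and PHGDH (0.32 ± 0.09) under TMM, and on the mitochondrial scale they lay between -0.19 and -0.14. The count was 6 without the MDA-MD-468 V50 6 h library, where CHAC1 was at -0.98, 8 without its V50 3 h library, 8 without the SY200/V50 6 h library of MDA-MD-231, 8 without its 12 h library, and 17 without the SY200/V50 12 h library of MDA-MD-468. XBP1 was lost without any of 6 libraries (-0.87 to -0.61), ATF4 without any of 2 libraries (-0.38 to -0.30), CHAC1 without any of 5 libraries (-1.81 to -0.98), PHGDH without any of 7 libraries (0.28 to 0.32), CALR without any of 5 libraries (0.29 to 0.33) and PDIA4 without any of 3 libraries (0.32 to 0.32).

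V50 against SY200 gave 8 called genes, 4 higher and 4 lower, against 8.3% of all genes (3.2% higher and 5.1% lower). HERPUD1 (-1.68 ± 0.40), ERN1 (-1.22 ± 0.31), DNAJB9 (-1.03 ± 0.25) and CEBPB (-0.96 ± 0.20) were lower with V50. ERN1 was lower with V50 at every time in MDA-MD-231. In MDA-MD-468 it was higher with V50 at 6 h (12.6 against 12.0 CPM) and 12 h (25.3 against 18.6 CPM). CEBPB was higher with V50 at 3 h in MDA-MD-468 (22.6 against 20.1 CPM). PSAT1 (0.61 ± 0.13, 0.12 on the mitochondrial scale), SHMT2 (0.39 ± 0.11, -0.10), HSP90B1 (0.30 ± 0.08, -0.19) and PDIA6 (0.28 ± 0.08, -0.21) were higher under TMM. Of the 34 genes 2 passed without any 1 of the MDA-MD-231 SY200 libraries or the MDA-MD-231 V50 3 or 6 h library, 4 without the MDA-MD-468 SY200 3 h or V50 3 h library, and 5 without the MDA-MD-231 V50 12 h library. SY200 and V50 share their control libraries and the spread of 1 fit.

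**Figure D4:**
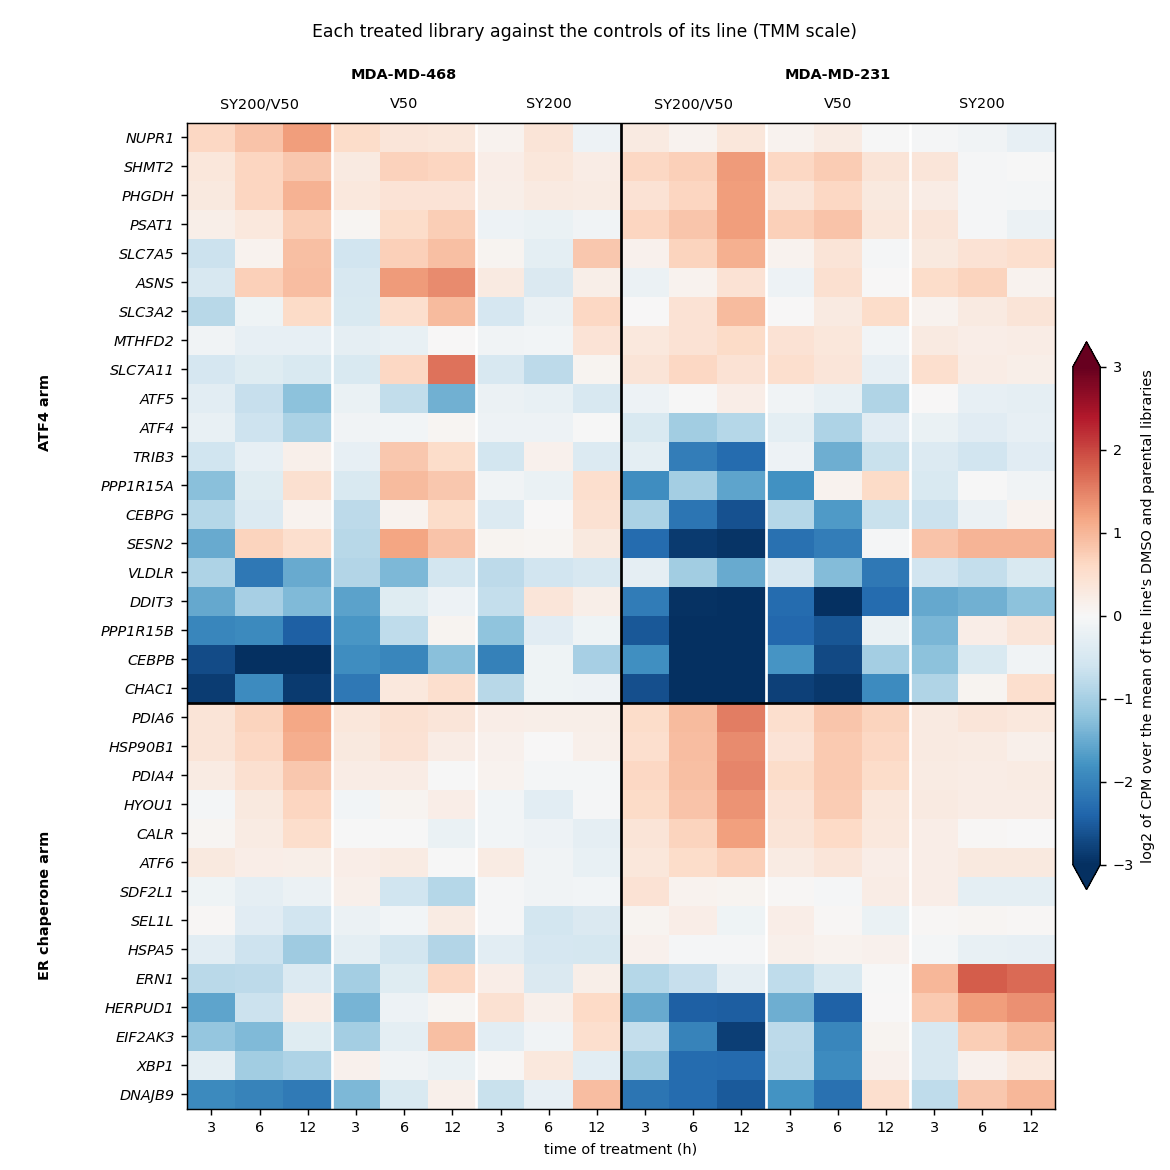
Heat map of the log2 ratio of CPM in each treated library (columns, with time in hours on the horizontal axis) to the mean of the DMSO and parental libraries of its line, TMM scale, for the 34 genes (rows), the ATF4 arm above the ER chaperone arm; red is above and blue below control, and colours end at -3 and 3. SESN2, CHAC1 and TRIB3 are blue in MDA-MD-231 and red in MDA-MD-468 at 6 h of V50, a difference between lines that did not pass the edgeR test.

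The lines differed in level before treatment. Between the controls, MDA-MD-468 against MDA-MD-231, 23 of the 34 genes differed, 13 higher and 10 lower, against 53.8% of all genes (28.8% higher and 25% lower). NUPR1 (5.42 ± 0.41), PHGDH (2.91 ± 0.16), TRIB3, a pseudokinase induced by ATF4 and CHOP (2.77 ± 0.55), XBP1 (2.01 ± 0.38), CHAC1 (1.42 ± 0.45) and ATF4 (1.39 ± 0.17) were among those higher in MDA-MD-468. NUPR1 was near the detection limit in the MDA-MD-231 controls (0.0798 CPM with DMSO and 0.328 CPM in the parental library). It passed the filter on low counts through MDA-MD-468, so the size of its difference is uncertain. SLC7A11, the cystine transporter (-2.12 ± 0.46), PPP1R15A (-2.12 ± 0.33), SLC7A5 (-1.07 ± 0.31) and SEL1L (-0.90 ± 0.22) were among those lower. CHAC1 was not called without the MDA-MD-231 parental (1.29) or MDA-MD-468 DMSO library (1.04), SLC7A5 without any of 2 libraries (-0.92 to -0.75) and SEL1L without the MDA-MD-231 DMSO library (-0.59), and the count was 15 without the MDA-MD-468 parental library and 14 with DMSO alone.

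With V50 CHAC1, SESN2, TRIB3 and CEBPG were above both controls in 2 of 3 MDA-MD-468 libraries and in 0 of 3 MDA-MD-231 libraries, but no difference between the lines passed the test. These genes were chosen after their values were seen, and DDIT3, CEBPB and ATF5 were below both controls in all 6 V50 libraries (difference of 2.13 ± 0.63, edgeR BH-adjusted p = 0.3 for DDIT3). The shares of all genes with such patterns were not counted. CHAC1 had 3.34, 20.8 and 23.6 CPM at 3, 6 and 12 h of V50 in MDA-MD-468, against 20.7 CPM with DMSO and 12.5 CPM in the parental library, and 0.458, 0.397 and 1.31 CPM in MDA-MD-231, against 6.87 CPM with DMSO and 5.53 CPM in the parental library. Its log2 fold change in MDA-MD-468 minus that in MDA-MD-231 was 2.87 ± 0.64 (edgeR BH-adjusted p = 0.219). SESN2 had 10.9, 45.8 and 36.1 CPM in MDA-MD-468, against 21.3 CPM with DMSO and 18.3 CPM in the parental library, and 2.90, 3.35 and 15.3 CPM in MDA-MD-231, against 20.4 CPM with DMSO and 10.8 CPM in the parental library (difference of 1.92 ± 0.75, edgeR BH-adjusted p = 0.433). TRIB3 had 198, 408 and 339 CPM in MDA-MD-468, against 210.0 CPM with DMSO and 257 CPM in the parental library, and 30.7, 12.1 and 21.3 CPM in MDA-MD-231, against 29.3 CPM with DMSO and 38.9 CPM in the parental library (difference of 1.13 ± 0.68, edgeR BH-adjusted p = 0.606). SLC7A11 reached 82.2 CPM at 12 h in MDA-MD-468, against 33.1 CPM with DMSO and 19.4 CPM in the parental library, whereas in MDA-MD-231 it had 96.0 CPM at that time, against 106 CPM with DMSO and 123 CPM in the parental library. In MDA-MD-468 the 6 and 12 h libraries of CHAC1, SESN2, TRIB3 and SLC7A11 were above both controls. In MDA-MD-231 no library of CHAC1, SESN2 or TRIB3 was above both controls, while SLC7A11 was above them at 3 and 6 h and below at 12 h.

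No gene of the 34, and 0 of all 18911 genes, passed the edgeR test of a different effect in MDA-MD-468 and MDA-MD-231 for any treatment. At an unadjusted p under 0.05 there were 14 with SY200/V50, against 15.9% of all genes, 8 with V50, against 9.9%, and 2 with SY200, against 5.54%. DESeq2 called 1 (SESN2, 3.00) with SY200/V50, against 2.23% of all genes, 1 (CHAC1, 2.84) with V50, against 0.635%, and 0 with SY200, against 0.175%. With SY200/V50 SESN2 had 6.57, 31.9 and 28.3 CPM in MDA-MD-468, against 21.3 CPM with DMSO and 18.3 CPM in the parental library, and 2.73, 1.70 and 1.62 CPM in MDA-MD-231, against 20.4 CPM with DMSO and 10.8 CPM in the parental library (difference of 2.85 ± 0.79, edgeR BH-adjusted p = 0.134). For CEBPG the difference in the fit of all libraries was 1.54 (edgeR BH-adjusted p = 0.224). With the SY200/V50 3 h library of MDA-MD-231 or that of MDA-MD-468 left out, the difference was 3.84 for SESN2 and 2.29 for CEBPG. Both choices give the same fit, because the 3 h library that stays then has a model term to itself. CEBPG had 46.0, 62.9 and 89.9 CPM in MDA-MD-468, against 88.1 CPM with DMSO and 80.2 CPM in the parental library, and 28.2, 11.6 and 8.62 CPM in MDA-MD-231, against 54.1 CPM with DMSO and 55.9 CPM in the parental library. It was below control at every time in MDA-MD-231 and above it at 12 h in MDA-MD-468.

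Of 39 further ATF4 and amino acid response genes that could be tested, 11 rose and 4 fell with SY200/V50 under TMM, and 5 rose and 2 fell with V50. The tRNA synthetase genes WARS1 (0.79 ± 0.10) and IARS1 (0.71 ± 0.10) rose with SY200/V50, and the amino acid transporter gene SLC38A2 (-2.13 ± 0.31) and the stress gene DDIT4 (-2.75 ± 0.53), an inhibitor of mTORC1 signalling, fell. Of 11 genes for eIF2 kinases and subunits of eIF2 and eIF2B, 4 rose and 0 fell with SY200/V50, among them EIF2AK1 (0.46 ± 0.08), the heme-regulated eIF2 kinase, and EIF2B1 (0.56 ± 0.11). With V50 2 rose and 1 fell. Of 44 further genes of ER folding, translocation and degradation, 18 rose and 4 fell with SY200/V50, and 9 rose and 1 fell with V50. PDIA3 (0.84 ± 0.08), a disulfide isomerase, and SEC61G (0.81 ± 0.09), a subunit of the translocation channel, rose with SY200/V50, and TRAF2 (-1.46 ± 0.18), an adaptor bound by IRE1, and EDEM3 (-0.76 ± 0.16), a mannosidase of the degradation pathway, fell. Of all genes, 24% were higher with SY200/V50 and 24.2% lower, while V50 had 10.4% higher and 11.9% lower. Each rise named here is under TMM, and values of these genes on the mitochondrial scale are not given. The all-gene median with SY200/V50 was 0.09 under TMM and -1.33 on the mitochondrial scale.

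In the knockout libraries the targeted transcripts came first as a check of the labels. CDK7 had 15.3 and 13.7 CPM at 72 and 96 h in CDK7 KO and 15.6 and 17.1 CPM in CDK7/9 KO cells, against 49.0 and 66.5 CPM with empty vector. CDK9 had 33.2 and 36.4 CPM in CDK9 KO and 34.3 and 36.6 CPM in CDK7/9 KO cells, against 70.4 and 62.1 CPM with empty vector. CDK1 had 81.7 and 84.3 CPM in CDK1 KO cells, against 178 and 283 CPM with empty vector. CDK1 was as low in the parental 2 library, of wild-type genotype in the labels (84.4 CPM), so this level does not by itself tell CDK1 KO from an unedited library. The 3' tags may lie outside the edited exons, so remaining reads do not measure the protein.

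Of the 34 genes, ATF5 and SLC7A11 alone were called by edgeR in the knockouts. In CDK7/9 KO cells 2 were called, against 11.3% of all 16783 genes tested (5.72% higher and 5.62% lower), and in CDK9 KO cells the same 2, against 8.16% (4.34% and 3.82%). In CDK7 KO cells 0 were called, against 0.0238% (0.0179% higher and 0.00596% lower), and in CDK1 KO cells 0, against 0.352% (0.322% and 0.0298%). ATF5 had 33.6 and 37.5 CPM at 72 and 96 h in CDK7/9 KO and 30.3 and 34.2 CPM in CDK9 KO cells, against 48.8 and 57.3 CPM with empty vector, with no overlap (-0.57 ± 0.10, edgeR BH-adjusted p = 0.00895 for CDK7/9 KO, and -0.72 ± 0.10, edgeR BH-adjusted p = 0.00597 for CDK9 KO). SLC7A11 had 219.5 and 230.1 CPM in CDK7/9 KO and 198 and 230.6 CPM in CDK9 KO cells, against 142 and 165 CPM with empty vector. It rose under TMM by 0.56 ± 0.10 in CDK7/9 KO and by 0.48 ± 0.10 in CDK9 KO cells and was at -0.26 and -0.36 on the mitochondrial scale. Its call in CDK9 KO cells was lost without any of 7 libraries (0.40 to 0.53). Mitochondrial mRNAs made up 5.38% and 5.41% of counts at 72 and 96 h in CDK7/9 KO and 5.04% and 5.98% in CDK9 KO cells, against 3.77% and 2.60% with empty vector. Their part in these calls was not tested.

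CDK7 KO and CDK1 KO had no call by edgeR, with 8 and 6 genes at an unadjusted p under 0.05, against 17.2% and 22.5% of all genes. DESeq2 called 0 in CDK7 KO cells, against 1.19% of all genes, and 1 (PSAT1, -0.54) in CDK1 KO cells, against 2.45%. DDIT3 had 16.1 and 15.9 CPM in CDK7 KO cells, against 19.9 and 30.8 CPM with empty vector (-0.64 ± 0.18, edgeR BH-adjusted p = 0.194). PSAT1 had 121 and 130.1 CPM in CDK1 KO cells, against 163 and 204 CPM with empty vector (-0.53 ± 0.11, edgeR BH-adjusted p = 0.0643). Of 36 further ATF4 and amino acid response genes, 1 rose in CDK1 KO cells, the stress transcription factor gene ATF3 (1.17 ± 0.16). In CDK7/9 KO cells 2 of the 36 fell. Of 11 genes for eIF2 kinases, eIF2 and eIF2B, 2 fell in CDK7/9 KO and in CDK9 KO cells. They were EIF2B3 (-0.47 ± 0.11 in CDK7/9 KO, -0.47 ± 0.11 in CDK9 KO) and EIF2B4 (-0.39 ± 0.10 and -0.44 ± 0.10), subunits of the exchange factor of eIF2. Of 44 further ER genes 1 rose and 1 fell in each of these knockouts. No other gene of these lists was called by edgeR in a knockout. Of all genes, 0.352% were called in CDK1 KO, 8.16% in CDK9 KO and 11.3% in CDK7/9 KO cells.

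The empty vector libraries differed from each other in the genes described here. HSP90B1 had 1546 CPM at 96 h and 925 CPM at 72 h with empty vector, while the 8 knockout libraries lay between 888 and 1005 CPM. HSPA5 had 1202 and 818 CPM at these times with empty vector, and the knockouts lay between 719 and 933 CPM. MTHFD2 had 104 and 69.8 CPM, and the knockouts lay between 59.9 and 70.9 CPM. The counts of calls changed with the vector library left out. Without the 72 h one 20 genes were called in CDK7/9 KO, 18 in CDK9 KO, 17 in CDK7 KO and 17 in CDK1 KO cells, and without the 96 h one 4, 5, 2 and 2 in that order of knockouts. The shares of all genes called in these fits were 41.8%, 39.8%, 35.5% and 39.7% without the 72 h library and 14.7%, 12.2%, 1.34% and 2.38% without the 96 h one. Without 1 of the knockout's own libraries 0 were called in CDK7/9 KO (either library) and in CDK9 KO (the 96 h library).

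**Figure D5:**
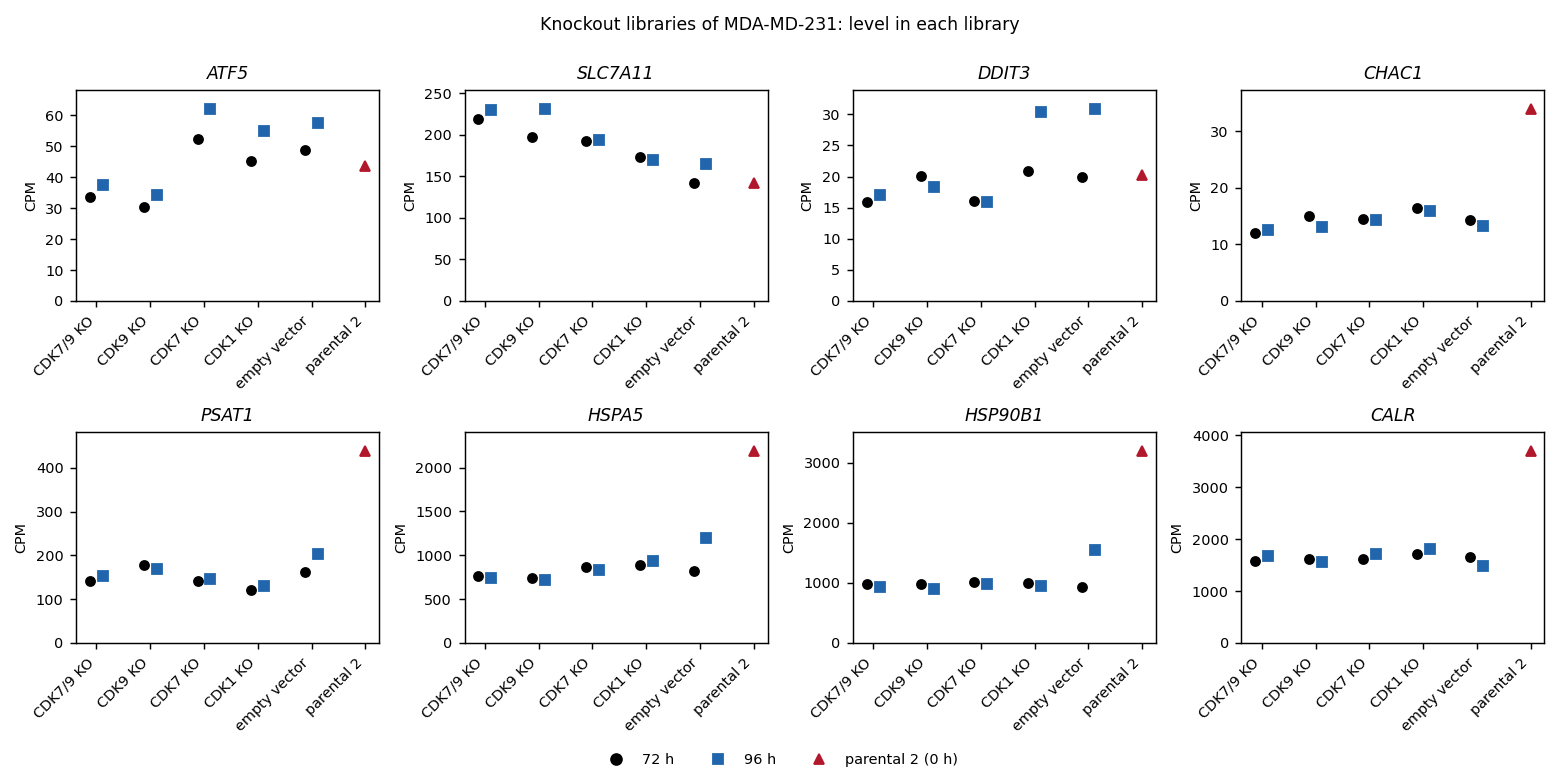
Level of 8 of the genes in CPM (vertical axes from 0) in each MDA-MD-231 library of the knockout part, with CDK7/9 KO, CDK9 KO, CDK7 KO and CDK1 KO left of empty vector and the parental 2 library; circles are 72 h, squares 96 h and the triangle parental 2. ATF5 lay at 30.3 to 37.5 CPM in CDK7/9 KO and CDK9 KO cells and at 48.8 and 57.3 CPM with empty vector, and HSP90B1 at 3188 CPM in the parental 2 library.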

How the data were processed

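Poly(A) RNA of 33 libraries was measured with QuantSeq 3' mRNA FWD kits on a HiSeq2500, per the labels' protocols. The deposited table holds raw counts, whole numbers for each gene symbol. Per the submitters' processing notes, the authors used FastQC, STAR 2.7.10a and GRCh38. How reads were counted (tool, annotation, strand, molecular identifiers) is not given in the sources used here, so reads of a gene and its antisense partner cannot be told apart, and reads without identifiers are not independent molecules.

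Counts were tested with edgeR 4.0.16 in R 4.3.3 (filterByExpr with a minimum count of 10 and minimum total of 15, TMM, quasi-likelihood F test, Benjamini-Hochberg over all genes). The inhibitor model had the line as a block and 10 condition levels over 22 libraries (11 residual degrees of freedom, 18911 genes), with DMSO and parental libraries as 1 control level of 4 libraries. A model with line terms compared effects between lines (8 degrees of freedom). Knockouts were fitted with terms for time and genotype over 10 libraries (4 degrees of freedom, 16783 genes). Standard errors are those implied by the F statistic, and CPM are counts over the TMM-scaled library size. Alternatives were DESeq2 size factors, no filter, DESeq2 1.42.0, scaling to 13 mitochondrial mRNAs, DMSO alone, no block for the line or time, and leaving out each library.

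The 34 genes, the lists and the tests were chosen with earlier results of these data known. In each comparison up to 6 genes with the largest called rise and fall were to be named, others with their values. Positions are from GENCODE release 29, promoters from RefSeq (GRCh38.p14).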

Additional observations from a re-analysis of the deposited data

Results flagged for a closer look

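A library outside the comparisons, named parental 2 and grouped with the MDA-MD-231 knockout libraries by its library name, held higher levels of most of these genes than any other library of that set. Of the 34 genes 25 were above all 10 other libraries (13 of the ATF4 arm and 12 of the ER chaperone arm) and 2 were below all 10, against 22.1% and 20.1% of all 16783 genes tested. More than 2-fold over the higher of the empty vector libraries were 8 genes, against 2.37% of all genes. In the ATF4 arm these were CHAC1, at 33.8 CPM in parental 2, against 14.3 and 13.2 CPM with empty vector at 72 and 96 h, TRIB3, at 198 CPM, against 61.4 and 47.4 CPM, PSAT1, at 438 CPM, against 163 and 204 CPM, and PHGDH, at 132 CPM, against 59.8 and 53.7 CPM. In the ER chaperone arm HSP90B1 was at 3188 CPM, against 925 and 1546 CPM, CALR at 3695 CPM, against 1665 and 1485 CPM, PDIA4 at 549 CPM, against 219 and 197 CPM, and HYOU1 at 964 CPM, against 447 and 419 CPM. In that library CDK1 stood at 84.4 CPM, against 178 and 283 CPM with empty vector. It is a single library with no matched time, and the difference was not tested.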

How the results depend on the processing

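Scaling to mitochondrial mRNAs turned 41 of the named values round, all from above to below 0. The values on that scale were with SY200/V50 NUPR1 -0.58, PDIA6 -0.56, HSP90B1 -0.61, PDIA4 -0.69, SHMT2 -0.69, PHGDH -0.70, PSAT1 -0.78, CALR -0.92, ATF6 -1.04, HYOU1 -0.84. With V50 SHMT2 -0.34, PSAT1 -0.36, PDIA6 -0.39, HSP90B1 -0.46, PHGDH -0.51, PDIA4 -0.55. For SY200/V50 against SY200 NUPR1 -0.044, PSAT1 -0.29, HSP90B1 -0.33, PDIA4 -0.36, PDIA6 -0.38, PHGDH -0.41. For SY200/V50 against V50 PDIA4 -0.14, HSP90B1 -0.14, CALR -0.16, PDIA6 -0.17, PHGDH -0.19. For V50 against SY200 SHMT2 -0.10, HSP90B1 -0.19, PDIA6 -0.21. For SY200/V50 at 12 h against 3 h PPP1R15A -0.026, SLC3A2 -0.021, PDIA6 -0.29, HSP90B1 -0.36, PHGDH -0.38, SHMT2 -0.59, CALR -0.51, PDIA4 -0.46, HYOU1 -0.42. In CDK7/9 KO cells SLC7A11 -0.26. In CDK9 KO cells SLC7A11 -0.36. It moved the count of called genes, with the share of all genes called in parentheses, to 34 with SY200/V50 (83.7%), 29 with V50 (75.5%), 8 with SY200 (28%), 17 for V50 against SY200 (39.8%), 31 in CDK7/9 KO (66.4%) and 30 in CDK9 KO cells (68%). No other setting reversed a value.

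Shares of all genes called follow in parentheses here too. Without the line block the counts were 6 with SY200/V50 (12.5%), 0 with V50 (0.545%), 9 for SY200/V50 against SY200 (10.9%), 0 against V50 (1.33%) and 0 for V50 against SY200 (0.0846%). For 12 h against 3 h they were 0 with SY200/V50 (0.175%), 0 with V50 (0%) and 0 with SY200 (0%). DMSO alone gave 8 with V50 (17%) and 14 between the lines' controls (36.6%). DESeq2 gave 2 with SY200 (5.21%), 2 for SY200 at 12 h against 3 h (7.31%), 1 for the line difference of V50 (0.635%), 1 for that of SY200/V50 (2.23%), 1 in CDK1 KO (2.45%) and 5 in CDK7/9 KO cells (10.9%). No filter gave 0 for SY200 at 12 h against 3 h (0.33%), 9 in CDK7/9 KO (9.44%), 5 in CDK9 KO (8.17%), 4 in CDK7 KO (2.93%) and 5 in CDK1 KO cells (5.12%). DESeq2's size factors gave 0 for SY200 at 12 h against 3 h (2.2%). The causes were not tested.

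Leaving out 1 library gave 20 to 24 with SY200/V50, 9 to 14 with V50, 0 to 2 with SY200, 21 to 24 for SY200/V50 against SY200, 6 to 17 against V50, 2 to 10 for V50 against SY200, 3 to 12, 0 to 6 and 0 to 1 for 12 h against 3 h of SY200/V50, V50 and SY200, 0 to 2, 0 to 0 and 0 to 0 for their line differences, 15 to 24 between controls, and 0 to 20, 0 to 18, 0 to 17 and 0 to 17 in CDK7/9, CDK9, CDK7 and CDK1 KO cells. No paired analysis was possible because the labels carry no replicate numbers to pair by, and the fits hold the line or, in the knockouts, the time as the block. Low counts limit NUPR1 in MDA-MD-231, CHAC1 in MDA-MD-231 with V50 or SY200/V50, and ASNS.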
